A study of Homo sapiens with 8 samples.

Results

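The tumour necrosis factor (TNF) ligand and receptor superfamilies were followed through RNA-seq of 2 human prostate cancer lines with and without overexpression of the microRNA miR-375. Members were the genes whose symbol is TNFSF or TNFRSF with a number, plus 12 genes of these families with other names (TNF, LTA, LTB, FAS, FASLG, CD40, CD70, CD27, NGFR, LTBR, EDAR and EDA2R). The rule used names alone and no measured value, but the families were chosen with earlier results of these data known. It found 44 of the 60622 genes in the count table, 16 ligands and 28 receptors. Of these, 32 had enough counts to be tested, and the 12 others reached at most 14 counts in any library.

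The LNCaP line came from a metastasis in a lymph node and depends on androgen signalling, whereas PC3 came from a metastasis in bone and grows without it. The 4 groups were LNCaP control, LNCaP with miR-375 overexpressed, PC3 control and PC3 with miR-375 overexpressed, with 2 libraries each. LNCaP grew in RPMI-1640 with 10% fetal bovine serum and PC3 in the same medium with 20%, so line and serum cannot be told apart in any comparison of the lines. The labels do not say by what means or how long miR-375 was overexpressed, nor what control cells were given. The labels also do not state whether the paired libraries were grown as separate cultures, so p-values measure the spread between libraries, which may be technical.

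TNF ligands are mostly membrane proteins that act as trimers on neighbouring cells or, once cleaved, at a distance. Some receptors with a cytoplasmic death domain can recruit caspase-8 and start apoptosis. Many of the signalling receptors use TRAF adaptors and feed into NF-kB, JNK and p38 kinase signalling. Decoy receptors bind ligand without passing on a full signal. In prostate cancer the families are known for TRAIL, FAS and TNF as death signals and for the RANK axis in bone.

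A microRNA pairs with messenger RNAs mainly through its seed, bases 2 to 8, so the sequence of miR-375 is given first together with the matches found among the members. In the mature sequence (RefSeq, GRCh38.p14, chr2:219001648-219001669, minus strand) the capitals mark the seed. In the target sequences, 25 bases of the messenger strand cut from the 3' untranslated region (GENCODE v29, GRCh38), the capitals mark the match.
hsa-miR-375-3p: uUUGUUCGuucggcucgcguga
EDA2R: tcagtggaaGAACAAAgtacacttg
TNFRSF9: ccatttcagGAACAAAgctaggtgc
The search covered 3 forms of match on the messenger strand: CGAACAA, CGAACAAA and GAACAAA, the second containing both others. One transcript per gene was used. Only 2 of the 44 members (4.55%) held a match, against 2581 of 18931 protein-coding genes (13.6%), with median untranslated regions of 840.0 and 871 bases. Both matches were of the form GAACAAA, at base 4142 of 4941 in TNFRSF9 (chromosome 1) and base 1925 of 2462 in EDA2R (X chromosome). Neither of the forms that pair with base 8 of the miRNA was found in any member, against 185 genes (0.977%) in all. TNFRSF9, the costimulatory receptor 4-1BB, did not pass the test with miR-375 in either line, and EDA2R, a receptor for an ectodysplasin isoform, had too few counts to be tested. A match describes letters and not a working site, and shorter matches, coding regions and other transcripts were not searched.

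Levels are given as CPM, each library's counts scaled to a common size, after trimmed-mean (TMM) scaling, and errors are the SD within a group (n = 2). A change is a log2 fold change ± SE from edgeR's quasi-likelihood test, with p-values adjusted by Benjamini-Hochberg over all 21066 tested genes and called under 0.05. Library totals ran from 33973861 to 41890528 counts, so that 3 counts, the upper limit used for a count of 0, equal 0.0712 to 0.0906 CPM. The MIR375 gene had 0 counts in all 8 libraries, which are poly(A) libraries and do not measure the mature miRNA, so the overexpression rests on the labels. All 6 LNCaP marker genes were lower and all 7 PC3 marker genes higher in the PC3 controls than in the LNCaP controls. With miR-375 all 7 PC3 markers fell in PC3, from a sum of 2876 and 2879 to 1568 and 1553 CPM, and of the LNCaP markers 3 fell and 1 rose in LNCaP, with a sum of 5139 and 5105 against 3890.2 and 3998 CPM. Markers of leukocytes, the cells in which many of these ligands and receptors were first studied, summed to 0.997 to 1.12 CPM in LNCaP controls and 1.80 to 2.14 with miR-375. In PC3 they summed to 2.41 to 2.77 CPM in controls and 4.26 to 4.84 with miR-375, and of the 4 tested leukocyte markers 0 were called in LNCaP and 1, higher, in PC3. The leukocyte markers CD3D, CD2 and MS4A1 were at 0 in every library. Fibroblast markers, mostly COL1A1, summed to 142 to 148 CPM in PC3 controls and 373 to 395 with miR-375, and endothelial markers to 368 to 370 and 205 to 206. Their part in the member results was not tested, and in such bulk libraries fewer cells of a type and less RNA per cell cannot be told apart.

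The leading members differed between the controls of the 2 lines. PC3 controls held more of the receptors TNFRSF21, TNFRSF25, TNFRSF12A, TNFRSF11A and CD40 and of the ligands CD70, TNFSF12, TNFSF9 and TNFSF10, while LNCaP held more TNFRSF10D, LTBR, TNFSF13, TNFSF15, TNFSF18 and TNF. Of the 32 tested members, 19 were higher in PC3 controls, 7 were lower and 6 were not called, against 39.2% of all tested genes higher and 41.2% lower (80.4% in all). The 26 members called are thus near the share of all genes. The members' median log2 difference, PC3 over LNCaP, was 1.53, and that of all tested genes was -0.07. By role, 6 of 11 ligands were higher and 4 lower, 4 of 7 death domain receptors were higher and 0 lower, 0 of 3 decoy receptors were higher and 2 lower, and 9 of 11 other receptors were higher and 1 lower.

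**Figure D1:**
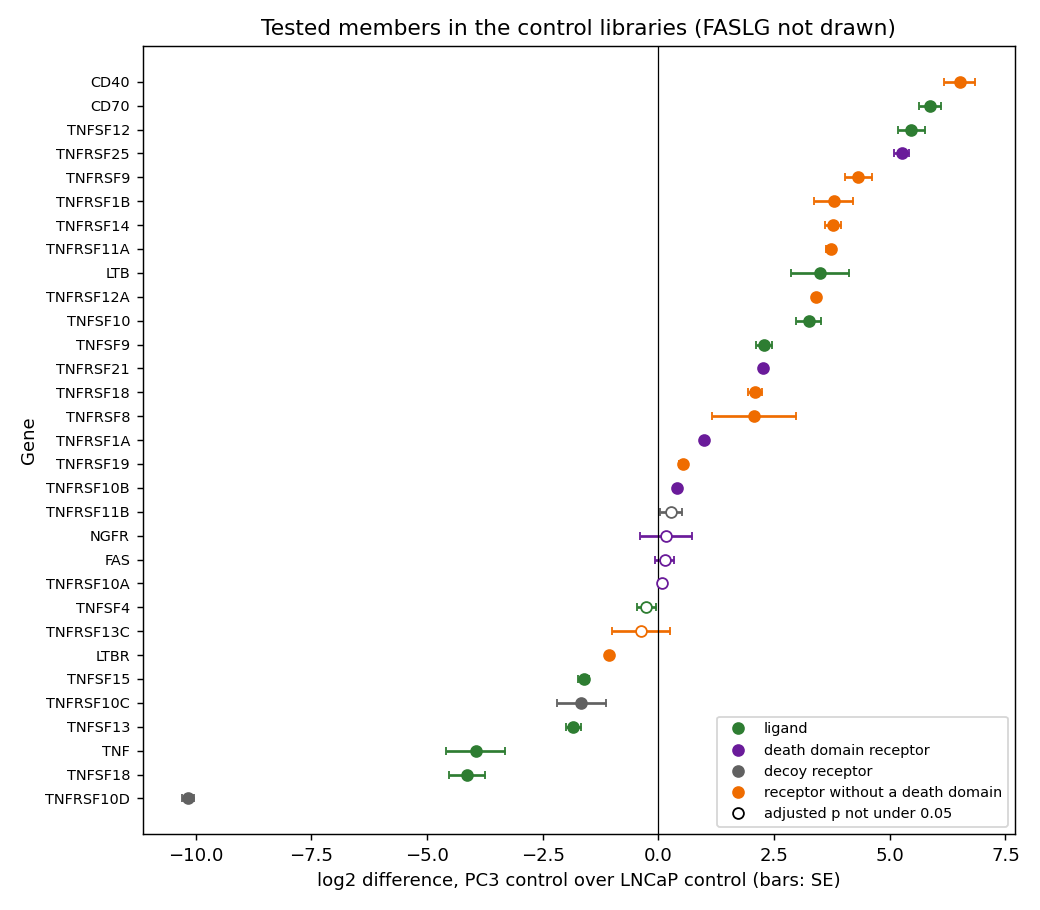
Log2 fold difference between PC3 and LNCaP controls (horizontal axis, with SE) for 31 tested members, coloured by role and open where not called. FASLG, at 0 in both LNCaP controls, is left out. TNFRSF10D lies far to the left at -10.16 and CD40 far to the right at 6.51.

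Levels of single genes are set against each other per length, as CPM per kilobase of merged exons. In LNCaP controls LTBR was highest at 48.6 ± 1.92, followed by TNFRSF10D at 38.0 ± 1.00, TNFRSF10B at 36.2, TNFRSF21 at 26.4 and TNFRSF1A at 20.6. In PC3 controls TNFRSF21 was highest at 125.9 ± 2.34, followed by TNFRSF12A at 94.2, TNFRSF10B at 47.7, TNFRSF1A at 40.7 and LTBR at 23.1. Receptors thus led in both lines, and TNFRSF10B was the third in each. Among ligands, CPM per kilobase was highest for TNFSF13 in LNCaP controls at 5.08 and for CD70 in PC3 controls at 11.3. Sums of CPM, which are not per length, serve only to compare groups. Summed over the 28 receptors, CPM was 905.6 and 886.6 in LNCaP controls and 1440.4 and 1419.8 in PC3 controls. Summed over the 16 ligands, it was 40.6 and 41.2 CPM in LNCaP controls and 61.6 and 59.7 in PC3 controls.

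With miR-375 in LNCaP, more members rose than fell. The ligands TNFSF15, TNFSF4 and TNFSF13, the death domain receptors TNFRSF10B and NGFR and the decoy TNFRSF10D rose. The orphan receptor TNFRSF19 and the death ligand TNFSF10 fell. In all, 10 of 32 tested members were higher and 2 lower, 31.2% and 6.25%, against 13.9% and 18.7% of all tested genes (32.6% in either direction). The members' median log2 change was 0.38, and that of all tested genes was 0. In PC3, 11 were higher and 7 lower, 34.4% and 21.9%, against 22.2% and 20.8% of all tested genes (43% in either direction), and the medians were 0.07 and 0.02. Of 21 tested receptors, 7 were higher and 7 lower in PC3 (33.3% each), and of 11 tested ligands 4 were higher (36.4%) and 0 lower. Summed ligand CPM was 57.6 and 63.1 in LNCaP with miR-375 and 96.7 and 94.4 in PC3 with miR-375, above the controls in both lines. With miR-375, receptor sums reached 1038.0 and 1014.6 CPM in LNCaP and 1987.1 and 2000.5 CPM in PC3. TNFRSF21 alone went from 459 and 447 CPM in PC3 controls to 1044 and 1052, a larger rise than that of the PC3 sum. Hence the PC3 receptor sum does not show a rise shared by the receptors. The other sums do not show a shared rise either. In each line 7 of the 11 tested ligands were not called, and in LNCaP 13 of the 21 tested receptors were not.

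**Figure D2:**
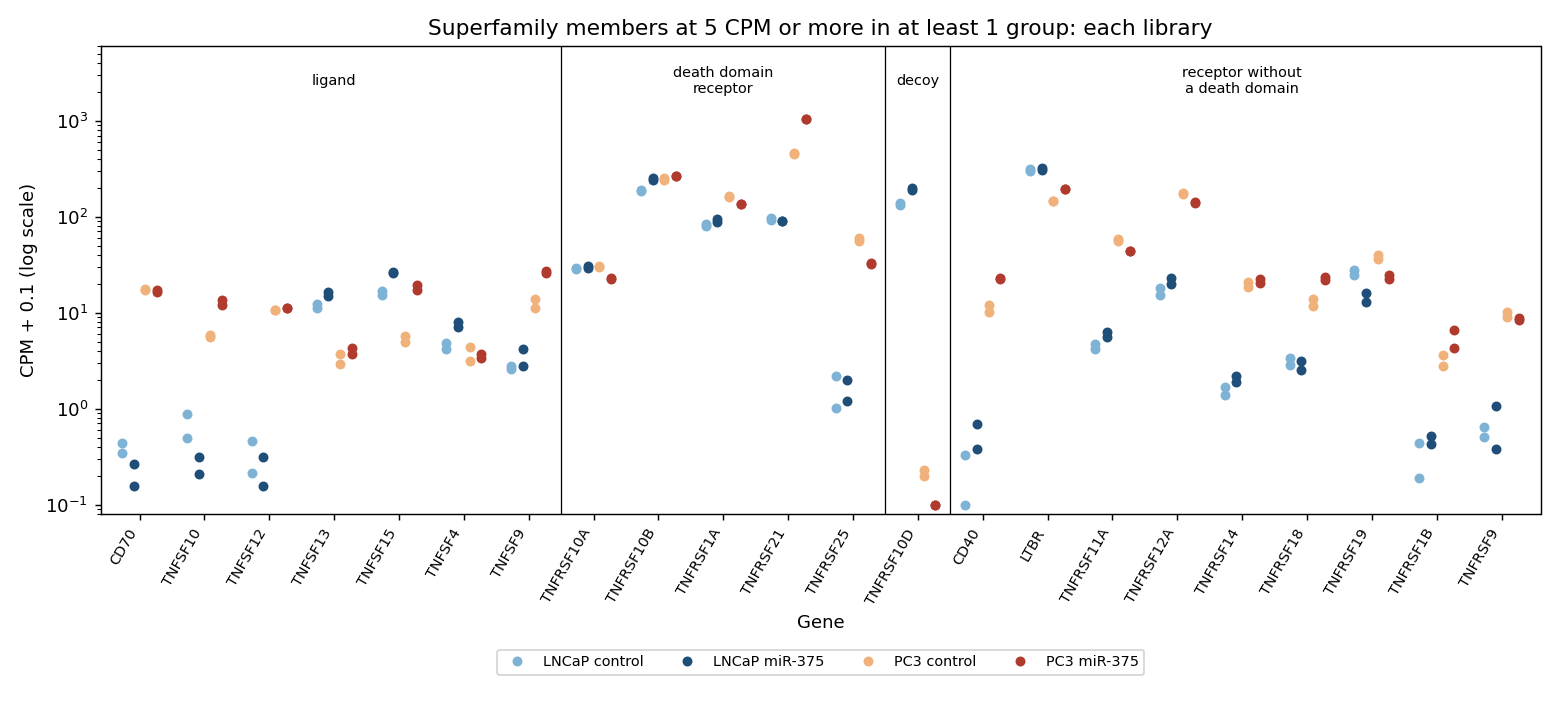
CPM plus 0.1 (log axis) in each of the 8 libraries for the 22 members that reached 5 CPM in a group, coloured by group and set out by role, each point being a library. In PC3, TNFRSF21 stands at 459 and 447 CPM in controls and at 1044 and 1052 with miR-375, and TNFRSF10D spans the widest range between the lines.

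Among the ligands, TNFSF15 (TL1A, the ligand of the death receptor TNFRSF25; chr9:114784635-114806126, minus strand, GRCh38) rose in both lines. It stood at 15.3 and 16.7 CPM in LNCaP controls and 26.1 and 25.8 with miR-375. In PC3 it was 5.64 and 4.82 in controls and 19.2 and 17.1 with miR-375. Both miR-375 libraries were above both controls in each line, and PC3 with miR-375 reached the range just above that of LNCaP controls. The increase was 1.62-fold in LNCaP (log2 0.70 ± 0.11, adjusted p = 1.602e-06 by edgeR's quasi-likelihood test) and 3.46-fold in PC3 (1.79 ± 0.12, adjusted p = 3.78e-15). The PC3 change exceeded the LNCaP change by 1.10 ± 0.16 on the log2 scale (interaction, adjusted p = 1.466e-06).

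TNFSF10, or TRAIL, the ligand that triggers apoptosis through TNFRSF10A and TNFRSF10B, was called in opposite directions in the 2 lines. Its CPM was 0.393 and 0.773 in LNCaP controls (13 and 27 counts) and 0.217 and 0.111 with miR-375 (8 and 4 counts). In PC3 it was 5.74 and 5.45 in controls and 13.4 and 12.05 with miR-375. The groups did not overlap in either line, but the LNCaP levels were close to the limit of 3 counts. TNFSF10 (chr3:172505508-172523507, minus strand) fell 3.52-fold in LNCaP (-1.82 ± 0.50, adjusted p = 0.003981) and rose 2.27-fold in PC3 (1.18 ± 0.18, adjusted p = 1.003e-06), and the interaction was 3.00 ± 0.52 (adjusted p = 2.335e-05). The LNCaP call was lost without control 2 (adjusted p = 0.178), without miR-375 library 2 (0.0822) and in limma-voom (0.0532). Between the controls TNFSF10 was 9.48-fold higher in PC3.

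TNFSF9, the 4-1BB ligand, measured 13.8 and 11.2 CPM in PC3 controls and 27.1 and 25.9 with miR-375, a 2.12-fold increase (1.08 ± 0.13, adjusted p = 5.782e-09, edgeR). In LNCaP the values were 2.48 and 2.66 in controls and 2.71 and 4.04 with miR-375 (log2 change 0.39, adjusted p = 0.1335). Its receptor TNFRSF9 stood at 9.95 and 8.92 CPM in PC3 controls and 8.24 and 8.70 with miR-375 and was not called (adjusted p = 0.5693). Ligand and receptor of this pair thus gave different calls in PC3. CD70, the ligand of CD27, lies 47254 bases from TNFSF9 on chromosome 19 and was 58.4-fold higher in PC3 than in LNCaP controls. It measured 17.1 and 17.6 CPM in PC3 controls and 16.5 and 17.1 with miR-375 (log2 change -0.05, adjusted p = 0.83), and its receptor CD27 was among the untested members.

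TNF itself, the founding ligand (chr6:31575567-31578336, plus strand), was rare in PC3, with 4 and 2 counts in controls and 16 and 36 with miR-375. These are 0.0998 and 0.0519 CPM against 0.381 and 0.854, and the groups did not overlap. The fitted increase in PC3 was 7.81-fold (2.96 ± 0.67, adjusted p = 0.0003934, edgeR), with a wide SE that comes with such counts. In LNCaP, TNF measured 1.39 and 1.06 CPM in controls and 1.68 and 2.71 with miR-375, and neither that change (0.84 ± 0.42, adjusted p = 0.1339) nor the interaction (2.12, adjusted p = 0.0524) was called. LTB, the lymphotoxin subunit encoded 2188 bases from TNF, was not called with miR-375 in either line, and the neighbouring LTA was not tested.

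TNFSF4, or OX40 ligand, a costimulator of T cells, was 4.11 and 4.72 CPM in LNCaP controls and 7.04 and 7.94 with miR-375, a 1.69-fold increase (0.76 ± 0.20, adjusted p = 0.002239). In PC3 it was 3.07 and 4.33 in controls and 3.24 and 3.61 with miR-375 (log2 change -0.11, adjusted p = 0.7244). TNFSF13, or APRIL, a survival ligand of plasma cells, was 12.1 and 11.1 CPM in LNCaP controls and 14.8 and 16.4 with miR-375, 1.35-fold higher (0.44 ± 0.14, adjusted p = 0.01458). That call was lost without LNCaP control 2 (adjusted p = 0.0859) or miR-375 library 2 (0.0912), and in PC3 the change of 0.26 did not pass (adjusted p = 0.258). TNFSF12, or TWEAK, the ligand of TNFRSF12A, lies 401 bases from TNFSF13 on chromosome 17, and the pair had opposite line patterns. TNFSF12 was 44.2-fold higher in PC3 controls, at 10.5 and 10.6 CPM against 0.362 and 0.115 in LNCaP, whereas TNFSF13 was 3.58-fold lower in PC3. TNFSF12 did not pass with miR-375 in either line (adjusted p = 0.4189 and 0.7938, edgeR).

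The remaining tested ligands were called between the controls of the lines and were not called with miR-375. TNFSF18, the ligand of TNFRSF18, was 17.5-fold lower in PC3 controls and LTB 11.3-fold higher. FASLG, the ligand of FAS, had 0 counts in both LNCaP controls and 0.299 and 0.571 CPM in PC3 controls (adjusted p = 0.0004959, edgeR). With the LNCaP libraries set at 3 counts each it was 4.93-fold higher in PC3, a value that leaves out the error of the PC3 counts. The 5 ligands not tested were LTA, TNFSF8, TNFSF11 (RANK ligand), TNFSF13B (BAFF) and TNFSF14 (LIGHT).

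Among the death domain receptors, TNFRSF21 (DR6) had the highest PC3 level and a 2.31-fold increase there with miR-375. Its CPM was 459 and 447 in PC3 controls and 1044 and 1052 with miR-375, and 97.3 and 92.2 in LNCaP controls and 90.9 and 90.6 with miR-375. The PC3 groups lay far apart, while in LNCaP both miR-375 libraries lay just below both controls. The PC3 change was 1.21 ± 0.03 (adjusted p = 3.077e-26, edgeR), the LNCaP change was -0.06 ± 0.04 (adjusted p = 0.2465), and the interaction was 1.27 ± 0.05 (adjusted p = 1.726e-20). Per kilobase, TNFRSF21 reached 291.5 ± 1.49 in PC3 with miR-375, so it also held the top rank there. The sign of the LNCaP value turned to 0.06 under total-count scaling, while the PC3 call was kept under every alternative run.

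TNFRSF10B (DR5), a TRAIL receptor that can signal death, was 186 and 188 CPM in LNCaP controls and 252 and 243 with miR-375, a 1.32-fold increase (0.41 ± 0.04, adjusted p = 3.191e-11, edgeR). In PC3 it was 242 and 249.7 in controls and 262 and 263 with miR-375, a difference of 1.07-fold (0.09 ± 0.04, adjusted p = 0.03453). This small PC3 call did not last: it was lost under DESeq2's size factors, DESeq2, both other filters and each of the 8 fits that leave out a library, with adjusted p from 0.0554 to 0.327. TNFRSF10A (DR4), the other full TRAIL receptor, was 30.0 and 30.7 CPM in PC3 controls and 22.6 and 22.4 with miR-375. It fell 1.35-fold there (-0.43 ± 0.08, adjusted p = 2.655e-05) and was not called in LNCaP, at 28.8 and 28.3 CPM against 29.01 and 30.5 (adjusted p = 0.6455). The call thus differed by line for TNFRSF10A, while TNFRSF10B was called higher in both lines with the larger change in LNCaP. The interactions were -0.31 ± 0.05 for TNFRSF10B and -0.49 ± 0.11 for TNFRSF10A (adjusted p = 1.339e-05 and 0.0009857, edgeR).

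TNFRSF1A, the main TNF receptor of most cells (chr12:6328757-6342114, minus strand), was 165 and 161 CPM in PC3 controls and 134 and 135 with miR-375, a 1.21-fold fall (-0.28 ± 0.04, adjusted p = 1.664e-06, edgeR). In LNCaP it was 84.3 and 80.4 in controls and 93.5 and 88.3 with miR-375, 1.10-fold higher (0.14 ± 0.05, adjusted p = 0.01527), a call lost without miR-375 library 1 (0.0607). In PC3 the ligand TNF and its receptor TNFRSF1A were thus called in opposite directions. TNFRSF25 (DR3), the receptor of TNFSF15, fell 1.76-fold in PC3, from 59.1 and 55.9 CPM to 33.0 and 32.3 (-0.82 ± 0.11, adjusted p = 4.28e-07, edgeR; 0.0978 in DESeq2). In LNCaP it was 0.906 and 2.06 CPM in controls and 1.11 and 1.91 with miR-375, with overlapping groups, and its PC3 control level was 38.3-fold higher. TNFRSF25 overlaps PLEKHG5 and, in antisense, ESPN, and the strand setting of the counting was not stated. Its counts may therefore include theirs or lack shared reads.

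NGFR, the p75 neurotrophin receptor, rose from low levels in both lines. It was 0.362 and 0.229 CPM in LNCaP controls and 1.35 and 0.886 with miR-375, and 0.349 and 0.311 in PC3 controls and 2.43 and 2.04 with miR-375. All 4 miR-375 libraries were above all 4 controls. The increase was 3.77-fold in LNCaP (1.92 ± 0.49, adjusted p = 0.002122, edgeR) and 6.70-fold in PC3 (2.74 ± 0.45, adjusted p = 3.763e-06), and the difference between them was not called (0.83, adjusted p = 0.4375). FAS, the receptor of FASLG, was between 4.11 and 5.42 CPM in every library and was called in no comparison. EDAR, the ectodysplasin receptor, was not tested.

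The decoy TNFRSF10D, a TRAIL receptor with a truncated death domain, separated the lines more than any other member. It was 132 and 137 CPM in LNCaP controls and 199.7 and 188 with miR-375, a 1.44-fold increase (0.53 ± 0.05, adjusted p = 5.142e-11, edgeR). In PC3 it had only 4 and 5 counts in controls and 0 in both miR-375 libraries. With 3 counts set for each library at 0 it was 1.61-fold lower, a value that leaves out the error of the 9 control counts. The adjusted p was 0.002145 in edgeR, and 0.126 when PC3 was fitted alone. Between controls its log2 difference was -10.16 ± 0.13 (adjusted p = 4.902e-38). The 4 TRAIL receptor genes lie side by side on chromosome 8, with TNFRSF10B 33410 bases from TNFRSF10C, 18150 from there to TNFRSF10D and 26421 on to TNFRSF10A. Of its direct neighbours, TNFRSF10C was also lower in PC3 controls, 3.17-fold (adjusted p = 0.004528), and TNFRSF10A was not called between controls (log2 difference 0.09, adjusted p = 0.311). TNFRSF10B was 1.32-fold higher in PC3 controls. These genes are related in sequence, and how reads matching more than 1 gene were counted was not stated.

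TNFRSF10C, the anchored TRAIL decoy, was between 0.167 and 1.20 CPM in all libraries and was not called with miR-375. TNFRSF11B, or osteoprotegerin, the soluble decoy for RANK ligand, was 3.44 and 3.03 CPM in LNCaP controls and 2.71 and 1.83 with miR-375, and 3.92 and 3.86 in PC3 controls and 2.95 and 3.53 with miR-375. Its miR-375 values were below the controls in both lines, but it passed in neither (adjusted p = 0.1248 and 0.3996, edgeR). TNFRSF6B, the soluble decoy for FASLG and TNFSF15, had 0 counts in every library. It overlaps the read-through gene RTEL1-TNFRSF6B, which had 24, 23, 20 and 24 counts in the LNCaP libraries and 434, 334, 137 and 136 in those of PC3. Reads of TNFRSF6B could thus be counted elsewhere or not at all.

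Among the receptors without a death domain, LTBR, the lymphotoxin beta receptor that drives noncanonical NF-kB signalling, rose 1.34-fold in PC3. It was 145 and 145 CPM in PC3 controls and 193 and 195 with miR-375 (0.42 ± 0.04, adjusted p = 1.391e-11, edgeR), and 314 and 297 in LNCaP controls and 309 and 319 with miR-375 (0.04 ± 0.04, adjusted p = 0.4433). The LNCaP groups overlapped. Under total-count scaling the median log2 change of all genes was 0.12 in LNCaP and 0.10 in PC3, against 0 and 0.02 in the main fit. LTBR also passed in LNCaP in 4 of 17 alternatives, total-count scaling among them (0.16, adjusted p = 0.0004898, edgeR). LTBR overlaps SCNN1A in antisense, and TNFRSF12A overlaps CLDN6 and TNFRSF10B overlaps RHOBTB2 in the same way. CD70, NGFR, TNFRSF11A, TNFSF10, TNFRSF10A, TNFRSF14, TNFRSF9, TNFRSF8, FAS, TNFSF12 and TNFSF18 also have antisense partners. With no stated strand setting, the counts of all these members may include reads of those genes or lack shared reads. TNFSF12 and TNFSF13 also overlap the read-through gene TNFSF12-TNFSF13, which had 0 counts in every library. LTBR lies 32930 bases from TNFRSF1A on chromosome 12, and this neighbouring pair was called in opposite directions in PC3.

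CD40, the receptor through which T cells activate B cells and other cells (chr20:46118272-46129863, plus strand), rose 2.03-fold in PC3, from 11.9 and 10.1 CPM to 22.2 and 22.6 (1.02 ± 0.15, adjusted p = 8.98e-07, edgeR). In LNCaP it had 0 and 8 counts in controls and 22 and 10 with miR-375. The LNCaP call (1.87 ± 0.64, adjusted p = 0.02105) was lost without control 1 (0.270), without miR-375 library 1 (0.304) and with LNCaP fitted alone (0.0711). The PC3 control level of CD40 was 91.3-fold that of LNCaP. TNFRSF18, or GITR, another T-cell costimulator, rose 1.80-fold in PC3, from 13.6 and 11.7 CPM to 23.6 and 22.0 (0.85 ± 0.13, adjusted p = 5.357e-07). In LNCaP it was 3.26 and 2.72 in controls and 3.06 and 2.44 with miR-375 (adjusted p = 0.708).

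TNFRSF12A (Fn14), the receptor of TNFSF12, moved in opposite directions. It was 17.9 and 15.0 CPM in LNCaP controls and 22.6 and 19.5 with miR-375, 1.28-fold higher (0.36 ± 0.08, adjusted p = 0.0002899, edgeR). In PC3 it was 172 and 176 in controls and 138 and 142 with miR-375, 1.24-fold lower (-0.31 ± 0.05, adjusted p = 5.238e-06). TNFRSF11A (RANK), the receptor of osteoclast formation, did the same, with 4.56 and 4.12 against 5.53 and 6.17 CPM in LNCaP and 58.6 and 56.0 against 43.6 and 43.9 in PC3. Its changes were 0.43 ± 0.13 in LNCaP (adjusted p = 0.007261; 0.0834 in limma-voom) and -0.39 ± 0.08 in PC3 (adjusted p = 5.007e-05). In both genes the group ranges did not overlap within a line, and PC3 levels stayed above LNCaP levels.

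TNFRSF19 (TROY), an orphan receptor known from development, was the one member that fell in both lines. It went from 24.6 and 27.6 CPM to 15.9 and 12.8 in LNCaP, 1.82-fold lower (-0.86 ± 0.10, adjusted p = 6.992e-09, edgeR), and from 39.6 and 35.9 to 24.5 and 22.6 in PC3, 1.61-fold lower (-0.68 ± 0.09, adjusted p = 8.329e-08). The 2 decreases did not differ by the interaction test (0.18, adjusted p = 0.3842). The 3' untranslated region searched for miR-375 matches, without a find, held only 149 bases in TNFRSF19.

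TNFRSF1B, the second TNF receptor, mostly of immune and endothelial cells, was 2.67 and 3.50 CPM in PC3 controls and 4.14 and 6.52 with miR-375, 1.73-fold higher (0.79 ± 0.28, adjusted p = 0.01992, edgeR). This call was lost without PC3 control 1 (adjusted p = 0.164), without PC3 miR-375 library 2 (0.404) and in DESeq2 (0.0846). TNFRSF14 (HVEM), the receptor of TNFSF14, was 20.7 and 18.4 CPM in PC3 controls and 22.3 and 20.3 with miR-375 and was not called (adjusted p = 0.4369). It was 13.7-fold higher in PC3 than in LNCaP controls, as were TNFRSF9 (19.9-fold), TNFRSF1B (13.8-fold) and TNFRSF8 or CD30 (4.19-fold, lost without LNCaP control 2 or PC3 control 2, adjusted p = 0.290 and 0.137). TNFRSF13C, the BAFF receptor, was called nowhere. The receptors not tested were EDAR, TNFRSF6B, CD27, EDA2R, TNFRSF4, TNFRSF13B and TNFRSF17, the last pair being receptors of B cells and plasma cells, and no untested member exceeded 0.332 CPM.

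Set side by side, 10 of the 12 members called in LNCaP were also called in PC3 (83.3%), which is 55.6% of the 18 called in PC3. Over all tested genes these shares were 67.3% and 51%. Both pairs of shares disregard direction, and the share of opposite calls over all genes was not computed. Of the 10 members, 4 were higher in both lines and 1 lower in both. Another 4 were higher in LNCaP and lower in PC3, and 1 was lower in LNCaP and higher in PC3. NGFR and TNFSF15 were called higher and TNFRSF19 lower in both lines, each under every alternative run. CD40 and TNFRSF10B were also called higher in both, but the LNCaP call of CD40 and the PC3 call of TNFRSF10B were lost under alternatives as given above. TNFRSF1A, TNFRSF11A and TNFRSF12A were called higher in LNCaP and lower in PC3, with LNCaP calls of TNFRSF1A and TNFRSF11A that were each lost in 1 alternative, and TNFSF10 was called lower in LNCaP and higher in PC3. TNFRSF10D was called higher in LNCaP, and its lower call in PC3 rests on 9 counts. The interaction was called in these 5. In total the interaction was called in 14 of 32 members, 6 with the larger value in PC3 and 8 with the larger value in LNCaP, against 15.6% and 10.9% of all tested genes (26.5% in all). Of the tested members, 3 were called in no comparison (FAS, TNFRSF11B and TNFRSF13C).

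**Figure D3:**
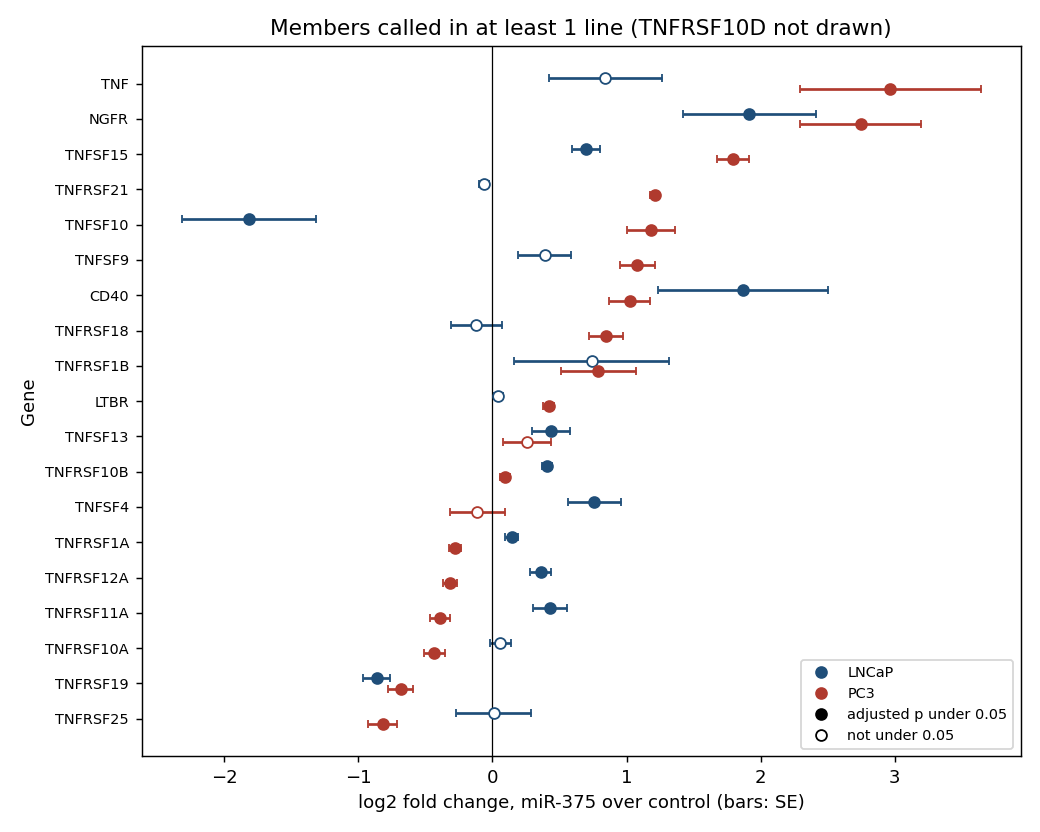
Log2 fold change with miR-375 in LNCaP and in PC3 (horizontal axis, bars SE) for 19 members called in at least 1 line, ordered by the PC3 value and filled where called. TNFRSF10D, with both PC3 miR-375 libraries at 0, is left out. TNFRSF1A, TNFRSF11A and TNFRSF12A lie right of 0 in LNCaP and left of 0 in PC3.

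The promoters of the members were read because NF-kB, which the receptors feed into, is known to bind some of them. The 250 bases before the start site (RefSeq, GRCh38.p14) were on hand for 29 of the 44 members and were searched on both strands for the NF-kB consensus motif of 10 letters. A match stood in 9 of 29 members (31.0%) and in 3221 of 27305 genes (11.8%). Matches stood in 0 of 8 members that were higher in PC3 with miR-375, in 1 of 4 that were lower and in 5 of 9 not called. The single promoter among those that changed in PC3 was that of TNFRSF19, and those of TNFRSF14, LTB, FAS and TNFRSF9 were among the uncalled. Shown are the promoter of TNFRSF21, the member with the smallest adjusted p in PC3, which held 0 matches (chr6:47309906-47310155, minus strand), and that of TNFRSF9, with 2 overlapping matches, the first beginning 74 bases before the start (chr1:7940840-7941089, minus strand). Capitals mark the matches, and both sequences end at the start site.
TNFRSF21: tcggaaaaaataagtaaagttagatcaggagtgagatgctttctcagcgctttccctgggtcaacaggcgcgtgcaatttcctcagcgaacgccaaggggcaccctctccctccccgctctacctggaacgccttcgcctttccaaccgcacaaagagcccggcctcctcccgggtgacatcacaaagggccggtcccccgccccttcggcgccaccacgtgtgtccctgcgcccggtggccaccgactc
TNFRSF9: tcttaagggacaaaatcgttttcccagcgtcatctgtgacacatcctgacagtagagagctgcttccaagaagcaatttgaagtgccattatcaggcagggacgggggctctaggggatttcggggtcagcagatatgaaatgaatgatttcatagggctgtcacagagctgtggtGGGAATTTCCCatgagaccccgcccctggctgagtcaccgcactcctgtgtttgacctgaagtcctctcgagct
A match describes letters and not binding, and a window without one says only that these letters are not in it.

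Downstream of the receptors, genes of death receptor signalling were split in both lines. In LNCaP 3 of 18 tested genes were higher and 3 lower (median log2 change -0.02), and in PC3 5 were higher and 6 lower (median -0.02). Over all tested genes 13.9% were higher and 18.7% lower in LNCaP, and 22.2% and 20.8% in PC3. The gene lists here and below were chosen with earlier results of these data known. Under total-count scaling the split of the death receptor list in LNCaP was 5 and 0. CASP8, the initiator caspase recruited by some death domain receptors, was 50.4 and 47.2 CPM in PC3 controls and 54.7 and 57.5 with miR-375 (0.20 ± 0.07, adjusted p = 0.01419, edgeR). It was not called in LNCaP (adjusted p = 0.8204). CFLAR, its competing inhibitor, was called in neither line (adjusted p = 1.0 and 0.792), nor was the inhibitor of apoptosis BIRC3 (0.5293 and 0.07376). BID, which links caspase-8 to mitochondria, rose in PC3 from 20.6 and 20.3 to 32.9 and 35.4 CPM (0.74 ± 0.08, adjusted p = 1.257e-09, edgeR), CASP10 rose by 0.77 and the FAS-associated factor FAF1 fell by 0.55 on the log2 scale. In LNCaP the log2 changes were 0.59 for CASP6, 0.31 for the deubiquitinase CYLD and -0.25 for the kinase RIPK1.

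Of 25 genes of TRAF adaptors and receptor-proximal kinases, 5 were higher and 7 lower in LNCaP (median 0.03), and 7 higher and 6 lower in PC3 (median -0.01). Shares of all tested genes were 13.9% higher and 18.7% lower in LNCaP and 22.2% and 20.8% in PC3. Under total-count scaling the splits of this list were 11 and 5 in LNCaP and 9 and 5 in PC3. MAP3K5 (ASK1), the kinase upstream of JNK and p38, went from 47.3 and 44.7 to 30.5 and 28.6 CPM in LNCaP (-0.64 ± 0.08, adjusted p = 3.633e-08, edgeR) and from 11.5 and 11.0 to 21.4 and 22.0 in PC3 (0.95 ± 0.09, adjusted p = 3.447e-11). OTULIN, which removes linear ubiquitin chains, fell in both lines, by 0.64 in LNCaP and 0.83 in PC3 on the log2 scale. In LNCaP MAP3K7 (TAK1) fell by 0.52 and MAP2K4 by 0.52. In PC3 IKBKB, a kinase of canonical NF-kB signalling, fell by 0.92 (from 42.4 and 41.7 to 21.2 and 23.1 CPM), and MAP3K14 (NIK), a kinase of the noncanonical route, fell by 0.89 (from 20.9 and 20.4 to 11.0 and 11.3 CPM). CHUK, a kinase of both routes named here after its values were seen, was 36.6 and 38.4 CPM in PC3 controls and 34.3 and 34.7 with miR-375 and was not called (adjusted p = 0.2226, edgeR).

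NF-kB subunits and inhibitors were called higher more often than lower, at 5 and 1 of 13 in LNCaP (median 0.21) and 6 and 1 in PC3 (median 0.20). All tested genes were called higher and lower at 13.9% and 18.7% in LNCaP and 22.2% and 20.8% in PC3. NFKBIA, the inhibitor that NF-kB itself induces, went from 121.5 and 116 to 194 and 193 CPM in PC3 (0.70 ± 0.04, adjusted p = 1.303e-16, edgeR) and from 107 and 109.8 to 129 and 122 in LNCaP (0.21 ± 0.04, adjusted p = 0.0001688). TNFAIP3 (A20), another feedback inhibitor, rose by a log2 change of 0.36 in LNCaP and 0.39 in PC3. RELB and BCL3 rose by 0.50 and 0.42 in LNCaP, and NFKBIB and TNIP1 by 0.79 and 0.44 in PC3. Under total-count scaling the splits were 6 and 0 in LNCaP and 9 and 0 in PC3.

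Genes known to respond to TNF were called higher in PC3 at 15 of 22 and lower at 2, against 22.2% and 20.8% of all tested genes. Their median log2 change was 0.81 against 0.02 for all genes. The list was chosen with earlier results of these data known, so this contrast is a description and not an independent test. PTGS2 (COX-2) rose from 20.0 and 20.9 to 302 and 313 CPM (3.91 ± 0.06, adjusted p = 1.582e-33, edgeR), the chemokine CCL20 from 5.96 and 7.06 to 34.5 and 32.3 CPM (2.36 ± 0.10), IL6 from 2.92 and 3.06 to 11.4 and 11.0 CPM (1.90 ± 0.21) and IL1A by a log2 change of 1.28. The 2 that fell there, named after their values were seen, were PLAU, from 738 and 754 to 377 and 379.7 CPM (-0.98 ± 0.04, adjusted p = 4.375e-20), and LIF, from 514 and 518 to 266 and 262 CPM (-0.97 ± 0.04, adjusted p = 5.376e-22). PLAU is also one of the PC3 marker genes. In LNCaP 5 of 22 were higher and 2 lower (median -0.02), against 13.9% and 18.7% of all tested genes. Several of the 22 had enough counts for testing only through PC3 and were barely measured in LNCaP. TNFAIP6 had 0 counts in every LNCaP library, and CSF2 and IL1A had at most 2 counts in any. The LNCaP split, its median and the interaction count below include such genes. CXCL8 rose in LNCaP from 22.6 and 22.3 to 37.5 and 38.9 CPM (0.77 ± 0.05). The protease PLAU was called higher at low levels, at 0.242 and 0 CPM in controls and 0.569 and 0.554 with miR-375. CXCL1 fell by 2.01 on the log2 scale, also at low levels, from 1.87 and 1.03 to 0.271 and 0.443 CPM. IL6 went from 0.514 and 0.315 CPM to 0 in both LNCaP miR-375 libraries, 5.04-fold lower with those libraries set at 3 counts each. The interaction was called in 14 of these 22 genes, against 26.5% of all tested genes, with the larger value in PC3 for 10 and in LNCaP for 4.

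Related genes outside the naming rule and the proteins that guide ligand shedding gave 2 higher and 2 lower of 9 in LNCaP and 3 and 2 in PC3. For all tested genes the shares were 13.9% and 18.7% in LNCaP and 22.2% and 20.8% in PC3. RELT, a receptor of the family, fell by 0.73 in LNCaP, its relative RELL1 fell by 1.05 in PC3, and RELL2 rose in both lines, by 0.66 and 0.81. RHBDF1 and RHBDF2, partners of the TNF-cleaving protease, were called in opposite directions in each line: RHBDF1 at 0.39 and RHBDF2 at -0.33 in LNCaP, and RHBDF1 at -0.46 and RHBDF2 at 0.23 in PC3. EDA, the ectodysplasin ligand, was 14.1 and 15.9 CPM in LNCaP controls and 15.7 and 14.2 with miR-375 and was called in neither line (adjusted p = 0.993 and 0.1299, edgeR). Under total-count scaling the splits were 3 and 2 in LNCaP and 4 and 2 in PC3.

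**Figure D4:**
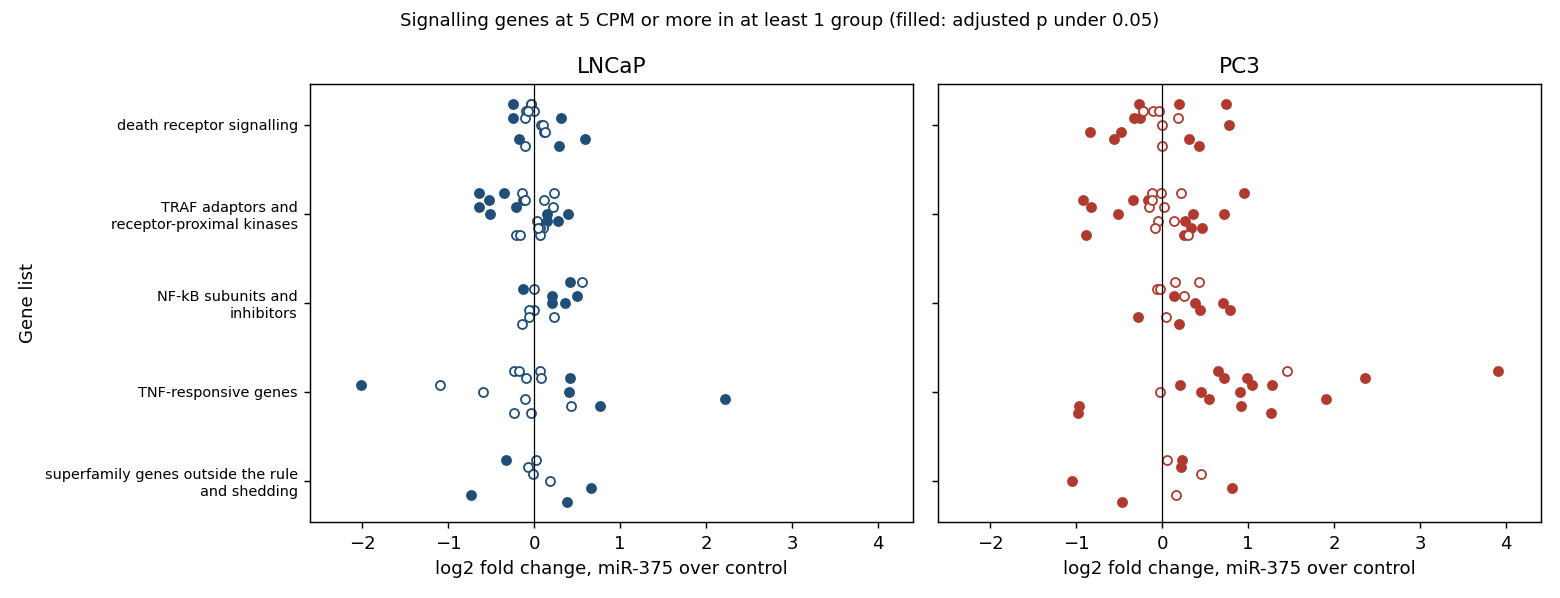
Log2 fold change with miR-375 (horizontal axis) in LNCaP (77 genes) and PC3 (79 genes) for tested genes of the 5 lists that reached 5 CPM in a group. Each point is a gene, filled where called, and genes at 0 throughout a group of that line are left out. The TNF-responsive genes in PC3 extend to the right as far as PTGS2 at 3.91.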

How the data were processed

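RNA was measured in 8 poly(A)-selected, dUTP-marked libraries read as 150-base pairs, per the labels' protocols. The authors deposited whole-number counts per gene, not normalized, in a single table. The build was hg38 and the tools DESeq2, featureCounts, STAR 2.7.1a and fastp, per the submitters' processing notes. Annotation, strand setting and the unit counted (read or pair) were not stated. Of the 60625 lines, 3 that were broken were left out (ANK2, 279 counts), and 0 columns belonged to other samples. From 68.1% to 70.3% of counts between 1 and 20 were even, so counts halved were tried too.

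Groups and replicate numbers came from the sample titles. Genes passing filterByExpr (21066) were fitted in edgeR 4.0.16 (R 4.3.3; TMM, glmQLFit with robust estimation, glmQLFTest) over all 4 groups with 4 residual degrees of freedom. Contrasts were the miR-375 effect in each line, their difference (PC3 effect minus LNCaP effect, the interaction) and PC3 control against LNCaP control. SE is the log2 fold change divided by the square root of F. Tested on simulated data over 21066 genes, with changed genes drawn at 5 CPM or more, the LNCaP comparison recovered 96% of 1.5-fold and 99% of 2-fold changes, calling 14 unchanged genes, and the PC3 comparison 96% and 100%, calling 13. Same-numbered libraries did not deviate together across genes (r from -0.0270 to 0.0139), so no block was used in the main fit. Whether they were handled together is not stated, and these correlations cannot decide it. Replicates correlated at r = 0.998 across genes, which are not independent, and none were identical. A fold from a floor of 3 counts covers only the counting error of the group at 0 and is not a lower limit. The floor may be too low if both reads of a pair were counted.

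The members and gene lists were chosen with earlier results of these data known. Members with a call in any contrast or at least 5 CPM in a group are named, and per list and line up to 4 called genes with the largest change at 5 CPM or more in some group, plus BIRC3, CFLAR, CASP8, NFKBIA, TNFAIP3 and EDA. Some list genes that the rule names are not reported here. Alternatives were other scalings, filters and tools (DESeq2 1.42.0, limma-voom in limma 3.58.1), a replicate block, each line alone, halved counts and leaving out each library. Coordinates, exon lengths and untranslated regions came from GENCODE v29 (GRCh38, the same assembly as hg38), and promoters and the miRNA from RefSeq tables.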

Additional observations from a re-analysis of the deposited data

Results flagged for a closer look

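For 14 members the change with miR-375 differed between the lines by the interaction test (PC3 effect minus LNCaP effect on the log2 scale, edgeR's quasi-likelihood test, Benjamini-Hochberg adjusted). The larger value was in PC3 for TNFSF10 at 3.00 ± 0.52 (adjusted p = 2.335e-05), TNFRSF21 at 1.27 ± 0.05 (1.726e-20), TNFSF15 at 1.10 ± 0.16 (1.466e-06), TNFRSF18 at 0.97 ± 0.23 (0.001155), TNFSF9 at 0.69 ± 0.24 (0.02566) and LTBR at 0.38 ± 0.05 (7.008e-07). It was in LNCaP for TNFRSF10B at -0.31 ± 0.05 (1.339e-05), TNFRSF1A at -0.42 ± 0.06 (2.349e-06), TNFRSF10A at -0.49 ± 0.11 (0.0009857) and TNFRSF12A at -0.68 ± 0.09 (4.775e-07). The same held for TNFRSF11A at -0.82 ± 0.15 (3.842e-05), TNFRSF25 at -0.83 ± 0.30 (0.04099), TNFSF4 at -0.87 ± 0.29 (0.02028) and TNFRSF10D at -5.69 ± 1.33 (0.001175). The TNFRSF10D value is fitted against libraries at 0 counts and depends on the prior count. The calls for TNFRSF25, TNFSF4 and TNFSF9 were lost in some fits that leave out a library, with adjusted p up to 0.395, 0.171 and 0.328. TNFRSF25 and TNFSF9 also lost the call in DESeq2 (0.298 and 0.0637) and limma-voom (0.119 and 0.0772), and TNFRSF25 with the replicate block (0.0632).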

How the results depend on the processing

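Of 132 recomputed counts of called members, 129 were within 1.5 times the reported count. The exceptions were the 2 members lower in LNCaP, which became 1 under limma-voom and ranged from 1 to 3 over the fits that leave out a library (1 without LNCaP control 2 and without LNCaP miR-375 library 2). Leaving out a library gave 9 to 11 higher in LNCaP, 9 to 10 higher and 7 lower in PC3, 5 to 6 and 6 to 9 for the interaction, and 18 to 19 and 7 between controls. The replicate block gave 10 and 2 in LNCaP, 11 and 7 in PC3, 6 and 7 for the interaction and 19 and 7 between controls. It changed no call except the TNFRSF25 interaction. Of 70 calls of single members, 57 were kept under every alternative run and 0 reversed.

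Only members without a call changed sign, and the cause was not tested. The sign changes given here are 13 of 27 uncalled results, those of members at 5 CPM or more in a group. Members below that level are left out of this list. In LNCaP under total-count scaling TNFRSF18 was 0.0034 and TNFRSF21 0.059, and TNFRSF21 was 0.0039 without a filter and 0.00011 with a minimum of 1 CPM in 2 libraries. In PC3 CD70 was 0.031 under total-count scaling. The TNFRSF1B interaction was -0.0048 with DESeq2's size factors, -0.019 in DESeq2, -0.19 in limma-voom, -0.046 without a filter, -0.027 with the stricter filter and -0.0047 with the replicate block. Over the fits that leave out a library, the LNCaP change ranged from -0.26 to 0.092 for TNFRSF18, -0.40 to 0.78 for TNFRSF25, -0.72 to 1.10 for TNFRSF9, -0.063 to 0.024 for TNFRSF21 and -1.99 to 0.30 for TNFSF12, and the PC3 change from -0.34 to 0.16 for TNFSF4. The interaction ranged from -1.28 to 0.54 for TNFRSF9, -1.27 to 0.61 for TNFRSF1B, -0.048 to 0.28 for TNFRSF19, -0.25 to 2.03 for TNFSF12, -0.34 to 0.013 for TNFSF13 and -6.11 to 0.025 for CD40. Of 58 results of tested members without a call, 10 gained a call under some alternative. In LNCaP LTBR gained it in 4 of 17 alternatives, total-count scaling among them, and TNFSF9 in 2, among them the fit without miR-375 library 1. TNFRSF14 gained it under total-count scaling (adjusted p = 0.04998, edgeR) and TNF with the line alone (0.01923). CD70 gained it without miR-375 library 1, TNFRSF9 without miR-375 library 2 and TNFRSF8 without control 1. For the interaction the members gaining a call were TNFRSF9, TNF and CD40, each without 1 library. Members under 1 CPM rest on few counts, and recovery at such levels was not simulated.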
